A study of Mus musculus with 12 samples.

Results

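The genes described here are 32 podocyte and slit diaphragm genes, chosen by symbol from the 23378 genes of a table of estimated RNA sequencing counts. All 32 were found and all 32 were among the 14180 genes that passed the filter on low counts. They cover the slit diaphragm and podocyte membrane (9 genes), the foot process cytoskeleton (10), nuclear factors (7), and secreted factors, receptors and other surface proteins (6). The study sequenced total RNA of cells sorted from mouse kidney cortex to learn how macula densa cells, the salt-sensing cells of the distal nephron, differ from other cells and respond to salt restriction. Podocytes belong to neither population that the sort aimed at, and several of the 32 genes are also made by other kidney cells.

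Every library came from C57BL/6 mice carrying nNosCreERT2 together with mTmG. In these mice, cells with a history of the neuronal nitric oxide synthase gene (Nos1) switch from membrane tdTomato (red) to membrane GFP (green) once the inducible recombinase is active. Macula densa cells were the green cells. Control cells were those with the brightest red signal. The submitters took them to stand for distal tubule and collecting duct epithelium, although tdTomato marks every kidney cell type that did not recombine, podocytes included. Mice were kept for 14 days on control diet or on low salt diet with enalapril, an inhibitor of angiotensin-converting enzyme, dissolved in the drinking water at 150 mg/L (LS+ACEi). There were 4 control-cell libraries and 2 macula densa libraries for each diet. The labels do not say whether replicates came from separate animals, so the p-values below measure the spread between these samples, which may be technical.

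Total counts per library ran from 4259020 to 14856542, and Gm42418, a gene annotated across ribosomal RNA sequence, accounted for 53.5% to 65.0% of them. Levels are given as CPM, the usual counts scaled to sequencing depth, here the TMM-adjusted library total, and 3 counts corresponded to 0.231 to 0.734 CPM. The summed level of 4 macula densa markers ran from 2113 to 3057 CPM in macula densa libraries and from 42.1 to 431 CPM in control cells. Most of the control-cell sum was Slc12a1, at 41.8 to 430 CPM, which is also a thick ascending limb marker. The other markers, Nos1, Pappa2 and Ptgs2, were each at 1.47 CPM or less in control cells and at 14.3 CPM or more in macula densa libraries. Collecting duct principal cell markers summed to 102 to 808 CPM in control cells and 10.7 to 36.0 CPM in macula densa libraries. The 32 podocyte genes together made up 0.0653% to 0.333% of all counts in control cells and 0.0402% to 0.0756% in macula densa cells. In bulk RNA, fewer cells of a type and less RNA per cell cannot be told apart.

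Podocytes are the epithelial cells that cover the outer surface of the glomerular capillaries. Their interlocking foot processes are joined by the slit diaphragm, a modified cell junction built around nephrin that forms part of the filtration barrier. An actin cytoskeleton holds the foot processes in shape, and a small set of transcription factors, WT1 among them, maintains the differentiated cell. Podocytes also secrete VEGF-A, on which the neighbouring glomerular endothelium depends.

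Promoter sequences are shown as a description of these genes. Most of the genes varied together between libraries while a few did not, and any part of the sequences in that was not tested. RefSeq windows of GRCm38.p6 covering the 250 bases before the start were found for 24 of the 32 genes (29 windows). The 4 printed windows overlap no annotated exon. Ptpro (chr6:137252049-137252298, plus strand), Clic5 (chr17:44188322-44188571, plus strand) and Inf2 (chr12:112588534-112588783, plus strand) are genes with a wide spread between control-cell libraries on control diet, and Npnt (chr3:132950292-132950541, minus strand) is the gene with the narrowest. Capitals mark a match to GCGNGGGNG, letters bound by the WT1 and EGR zinc finger factors, on either strand.
Ptpro: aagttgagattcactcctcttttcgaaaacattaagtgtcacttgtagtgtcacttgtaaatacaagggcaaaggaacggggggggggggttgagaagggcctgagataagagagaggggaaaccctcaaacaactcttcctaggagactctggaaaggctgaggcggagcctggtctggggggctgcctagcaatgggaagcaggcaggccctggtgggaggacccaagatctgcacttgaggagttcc
Clic5: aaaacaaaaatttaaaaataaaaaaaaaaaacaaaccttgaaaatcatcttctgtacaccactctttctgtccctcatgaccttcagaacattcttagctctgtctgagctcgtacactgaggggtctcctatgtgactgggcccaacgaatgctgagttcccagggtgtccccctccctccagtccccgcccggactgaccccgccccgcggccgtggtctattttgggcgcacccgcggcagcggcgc
Inf2: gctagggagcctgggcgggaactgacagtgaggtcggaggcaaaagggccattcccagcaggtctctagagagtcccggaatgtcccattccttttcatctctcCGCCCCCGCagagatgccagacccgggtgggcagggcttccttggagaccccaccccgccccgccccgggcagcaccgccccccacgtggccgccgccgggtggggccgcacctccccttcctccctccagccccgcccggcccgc
Npnt: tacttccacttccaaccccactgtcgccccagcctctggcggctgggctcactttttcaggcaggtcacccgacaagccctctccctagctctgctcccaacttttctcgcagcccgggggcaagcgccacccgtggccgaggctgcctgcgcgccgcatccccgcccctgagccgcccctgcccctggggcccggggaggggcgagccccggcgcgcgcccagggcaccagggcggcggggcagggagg
The letters GCGNGGGNG stood in 27.6% of the podocyte gene windows, in 7 of 24 genes (Actn4, Arhgdia, Cd2ap, Foxc1, Inf2, Magi2 and Tyro3), and in 10.5% of all 32841 windows searched. The windows also differed in base composition, with a median GC content of 65.2% against 52.4% over all windows. The 7 genes with a WT1 and EGR type match included genes of narrow and of wide spread between control-cell libraries on control diet. The highest over the lowest library was 1.27-fold for Cd2ap, 1.31-fold for Arhgdia, 1.69-fold for Actn4 and 2.86-fold for Foxc1. It was 5.03-fold for Tyro3, 8.52-fold for Magi2 and 15.1-fold for Inf2. Lmx1b, Ptpro and Nphs1, with the widest spread of the 24 genes, had no match. Not all windows searched were free of exon. The Nphs1 window lay wholly in annotated exon (250 bases), and that of Lmx1b overlapped exon by 152 bases. In the windows with a match the overlap ran from 0 bases for Inf2 to 241 for Cd2ap. The E-box letters CANNTG, which are not capitalised, stood in 51.7% of podocyte gene windows and 66.2% of all windows. The homeodomain letters TAATTA stood in 3.45% against 4.84%, and the forkhead letters TAAACA in 0 of the podocyte gene windows against 12%. All letters were searched on both strands, and a match is a description of the sequence only.

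Of the slit diaphragm and membrane genes, Nphs1, Podxl, Ptpro and Thsd7a shared the same low control-cell libraries, and Cd2ap did not. Values per library below follow replicate order within each group. Nphs1, which encodes nephrin (chromosome 7, 30458315 to 30487223), measured 74.0, 70.4, 41.9 and 1.76 CPM in control cells on control diet and 6.84, 55.8, 13.0 and 52.8 CPM on LS+ACEi. In macula densa cells it measured 6.67 and 1.06 CPM on control diet and 0.383 and 0 CPM on LS+ACEi. Control-cell replicate 4 on control diet was thus below macula densa replicate 1 on the same diet, and the groups overlapped. On LS+ACEi every control-cell library was above both macula densa libraries.

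Podxl, which encodes the sialomucin podocalyxin of the podocyte surface and is also made by vascular endothelium (chromosome 6, 31519488 to 31563981), had the highest level of the 32 genes per kilobase of exon, 60.8 CPM per kilobase averaged over control cells. Its CPM in control cells was 642, 520.2, 352 and 21.8 on control diet and 79.9, 524, 99.97 and 429 on LS+ACEi. Macula densa libraries had 71.3 and 6.19 CPM on control diet and 5.36 and 2.79 CPM on LS+ACEi. Replicate 4 on control diet and replicates 1 and 3 on LS+ACEi were the low control-cell libraries for this gene too. Ptpro, a receptor-type tyrosine phosphatase of the foot process membrane (chromosome 6, 137252319 to 137463233), had 64.5, 51.7, 32 and 1.34 CPM in control cells on control diet and 5.69, 62.7, 5.04 and 56.0 CPM on LS+ACEi. The macula densa libraries had 6.77 and 0.244 CPM of Ptpro on control diet and 0.383 and 0.820 CPM on LS+ACEi. Control-cell libraries had the order they had for Podxl, except that replicate 3 was below replicate 1 on LS+ACEi.

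Thsd7a, a membrane protein of the foot process known as an autoantigen in membranous nephropathy (chromosome 6, 12311610 to 12749410), had 159, 120.1, 73.0 and 15.4 CPM in control cells on control diet and 15.9, 116, 17.2 and 92.7 CPM on LS+ACEi. Its macula densa values were 20.5 and 2.44 CPM on control diet and 6.70 and 0.820 CPM on LS+ACEi. Cd2ap, an adaptor that links nephrin to actin and is also present in many other cells (chromosome 17, 42792951 to 42876665), stood apart from these genes. It had 80.9, 75.2, 75.9 and 95.3 CPM in control cells on control diet and 104, 73.7, 98.9 and 72.9 CPM on LS+ACEi. Macula densa libraries had 74.2 and 52.2 CPM of Cd2ap on control diet and 69.0 and 81.5 CPM on LS+ACEi. The 3 control-cell libraries with little Nphs1 were the highest for Cd2ap.

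The other slit diaphragm and membrane genes were Plce1 (phospholipase C epsilon), Magi2 (a nephrin scaffold), Kirrel (the nephrin partner NEPH1) and Trpc6 (a cation channel). Across control cells they ranged from 8.06 to 64.6, from 5.25 to 55.4, from 2.17 to 18.4 and from 0.231 to 2.25 CPM, in that order. Trpc6 had the lowest level per kilobase of the 32 genes, 0.228 CPM per kilobase. It overlaps Gm32014 on the opposite strand, whose counts were 28.9% of its own, and since it is not known whether counting used strand, its value is uncertain.

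**Figure D1:**
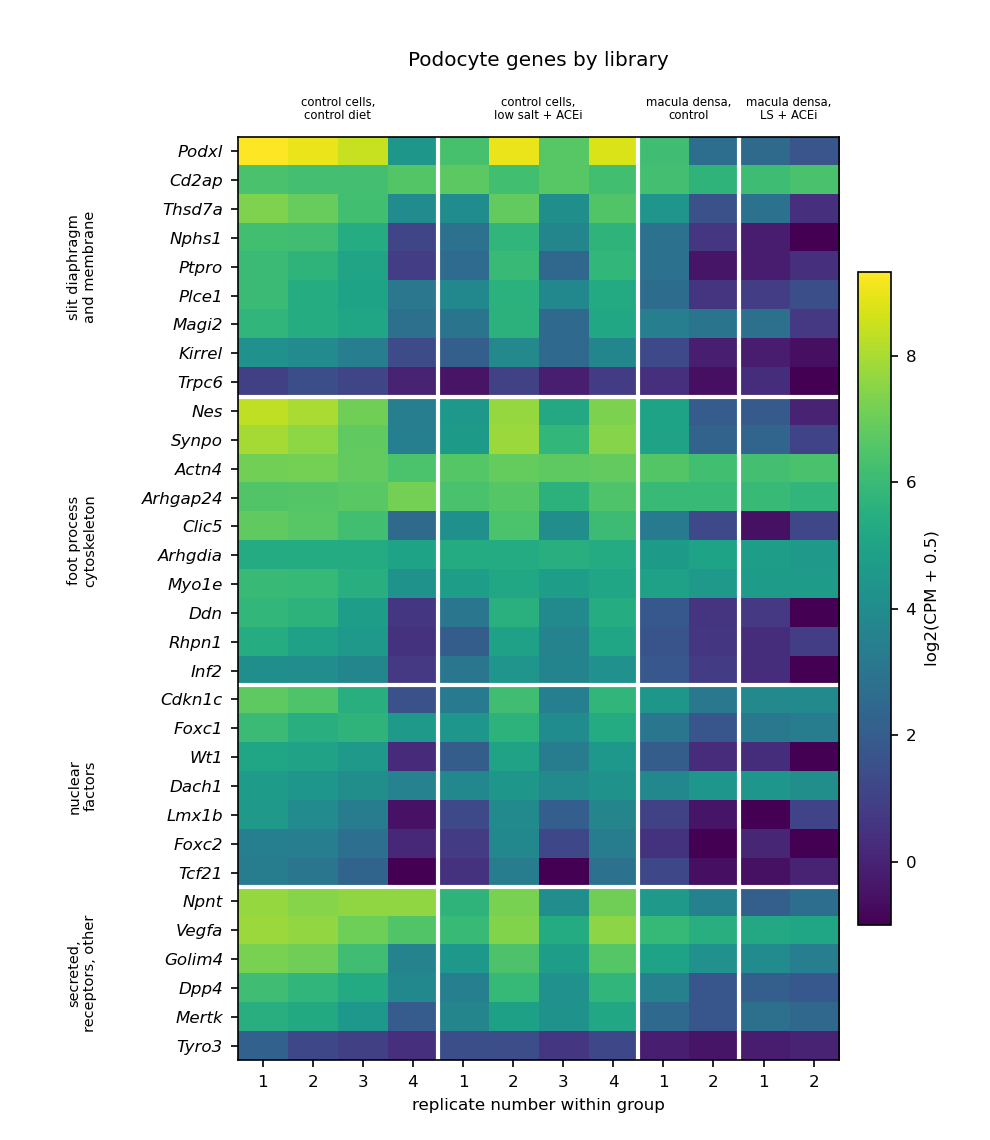
Level of each podocyte gene (rows, grouped by role) in each of the 12 libraries (columns), as log2 of CPM plus 0.5. Most rows are dark in the macula densa libraries and in replicate 4 of the control-diet control cells, while the rows of Cd2ap, Actn4, Arhgap24, Arhgdia and Dach1 have nearly 1 colour throughout.

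Among genes of the foot process cytoskeleton, Synpo and Nes followed the pattern of Nphs1, and Actn4 and Arhgap24 did not. Synpo, which encodes the actin-binding protein synaptopodin (chromosome 18, 60593973 to 60660142), had 245, 188, 112 and 10.5 CPM in control cells on control diet and 24.1, 216, 56.3 and 175 CPM on LS+ACEi. Its macula densa values were 30.5 and 4.32 CPM on control diet and 4.60 and 1.64 CPM on LS+ACEi. Nes, which encodes the intermediate filament protein nestin and is also made by some endothelial and mesangial cells (chromosome 3, 87971078 to 87980451), had 319, 258, 136 and 10.3 CPM in control cells on control diet. On LS+ACEi its control-cell values were 22.2, 204, 36.8 and 155 CPM. Nestin RNA in macula densa libraries was at 31.7 and 3.5 CPM on control diet and at 3.26 and 0.492 CPM on LS+ACEi. For both genes, macula densa replicate 1 on control diet was above control-cell replicate 4 on that diet.

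Clic5, a chloride intracellular channel protein of the foot process cortex that is also made by glomerular endothelium (chromosome 17, 44188584 to 44280172), had 112, 101, 74.1 and 5.48 CPM in control cells on control diet and 17.7, 84.2, 16.6 and 68.1 CPM on LS+ACEi. In macula densa cells Clic5 was at 8.92 and 1.95 CPM on control diet and at 0.192 and 1.80 CPM on LS+ACEi. Actn4, the actin crosslinker alpha-actinin-4 (chromosome 7, 28893248 to 28962340), had 140.4, 142, 116 and 83.8 CPM in control cells on control diet and 97.4, 117, 108 and 113 CPM on LS+ACEi. The macula densa values of Actn4 were 93.4 and 73.8 CPM on control diet and 74.9 and 82.8 CPM on LS+ACEi, so its whole range over 12 libraries was under that of Synpo within any control-cell group. Arhgap24, a GTPase-activating protein (chromosome 5, 102481391 to 102897937), was highest in the library where Nphs1 was lowest, with 92.5, 93.3, 101 and 142 CPM in control cells on control diet. It had 82.8, 95.7, 49.1 and 90.0 CPM in control cells on LS+ACEi. The macula densa libraries had 64.2 and 63.5 CPM of Arhgap24 on control diet and 61.3 and 55.0 CPM on LS+ACEi.

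The remaining cytoskeletal genes fell on both sides. Ddn (dendrin), Rhpn1 and Inf2 (a formin) ranged over control cells from 1.03 to 57.3, from 0.930 to 41.7 and from 1.14 to 20.6 CPM. Arhgdia (a GDP-dissociation inhibitor) and Myo1e (an unconventional myosin) ranged only from 31.1 to 43.9 and from 18.8 to 62.7 CPM.

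**Figure D2:**
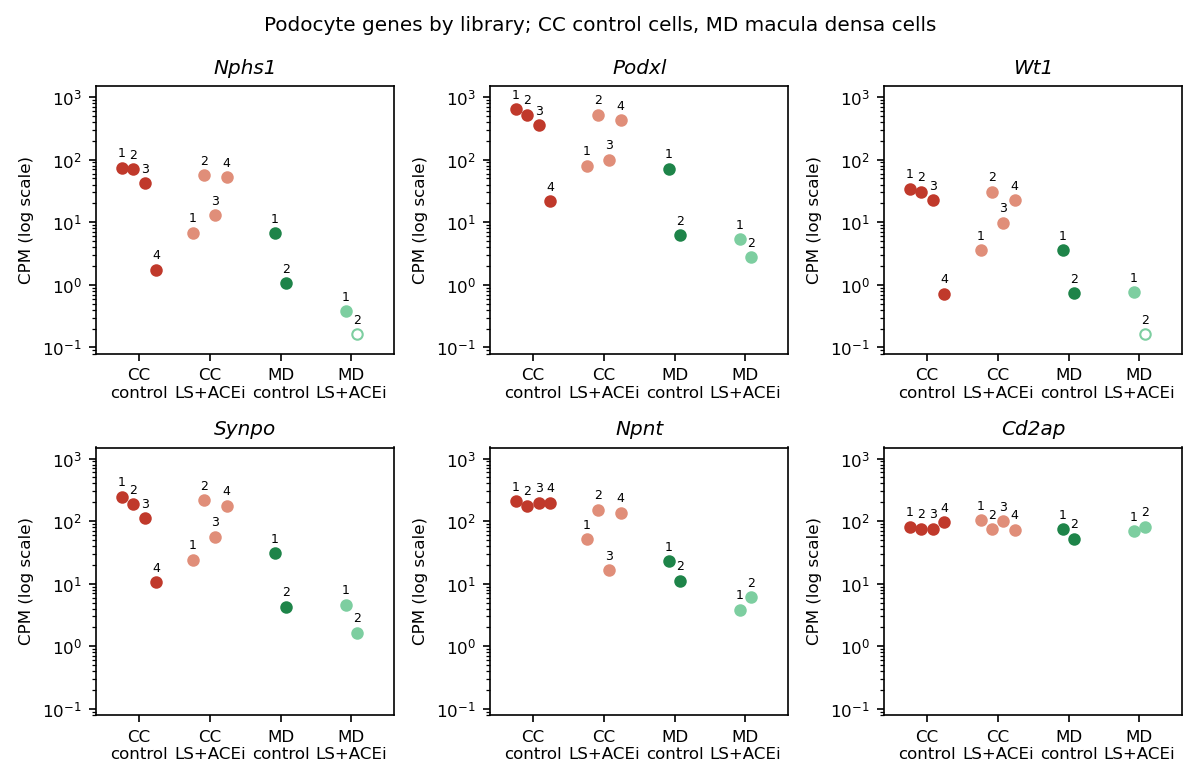
CPM on a log axis for 6 podocyte genes, 1 point per library labelled with its replicate number, in control cells (CC) and macula densa cells (MD) on each diet. Open points stand at the value of 1 count for libraries with 0 counts. Nphs1, Podxl, Wt1 and Synpo have the same low control-cell libraries, Npnt has no low library on control diet, and Cd2ap lies between 52.2 and 104 CPM everywhere.

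Nuclear factors were less abundant but showed the same low libraries. Wt1, which encodes the zinc finger factor that specifies podocytes (chromosome 2, 105126529 to 105173616), had 34.3, 30.5, 22.6 and 0.723 CPM in control cells on control diet and 3.61, 30.8, 9.87 and 22.3 CPM on LS+ACEi. Its macula densa values were 3.59 and 0.733 CPM on control diet and 0.766 and 0 CPM on LS+ACEi. Control-cell replicate 4 on control diet was therefore at the level of macula densa replicate 2 on that diet. Cdkn1c, the cyclin-dependent kinase inhibitor p57 found in mature podocytes (chromosome 7, 143458339 to 143461050), had 109.9, 89.9, 45.7 and 2.48 CPM in control cells on control diet. On LS+ACEi, control cells had 8.68, 71.5, 10.5 and 55.8 CPM of Cdkn1c. Macula densa cells, at 21.5 and 8.23 CPM on control diet and 14.0 and 14.4 CPM on LS+ACEi, had more of it than 3 of the 8 control-cell libraries except in replicate 2 on control diet.

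Lmx1b, a LIM homeodomain factor mutated in nail-patella syndrome (chromosome 2, 33560965 to 33640511), had 23.3, 15.5, 9.90 and 0.207 CPM in control cells on control diet and 1.92, 14.7, 3.78 and 12.6 CPM on LS+ACEi. Its macula densa values were 1.54 and 0.244 CPM on control diet and 0 and 1.64 CPM on LS+ACEi. The lowest control-cell value was under 3 counts. Foxc1, a forkhead factor also made by mesenchymal and some tubular cells (chromosome 13, 31806633 to 31812476), varied less, with 65.0, 45.2, 52.1 and 22.7 CPM on control diet and 21, 50.9, 15.5 and 40.4 CPM on LS+ACEi. In macula densa libraries Foxc1 was at 7.90 and 2.85 CPM on control diet and 8.24 and 9.84 CPM on LS+ACEi, below every control-cell library. Dach1, a nuclear cofactor of podocytes and of other kidney epithelia (chromosome 14, 97786853 to 98169765), had 25.0, 21.1, 16.7 and 11.4 CPM in control cells on control diet and 13.6, 21.5, 14.5 and 18.7 CPM on LS+ACEi. Macula densa libraries had 13.6 and 20.9 CPM of Dach1 on control diet and 21.1 and 16.7 CPM on LS+ACEi, within the control-cell range.

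The forkhead factor Foxc2 ranged from 0.620 to 13.5 CPM and the basic helix-loop-helix factor Tcf21 from 0 to 9.73 CPM over control cells. Foxc2 overlaps Gm20388 on the same strand, whose counts were 72.8% of its own, and Tcf21 overlaps Gm10824, at 4.14%, so both values are uncertain.

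Of the secreted factors, receptors and other proteins, Npnt was the exception to the shared pattern on control diet. Npnt, which encodes nephronectin, a basement membrane ligand of integrins that tubular epithelium also makes (chromosome 3, 132881745 to 132950291), had 209, 175, 196 and 197 CPM in control cells on control diet. On LS+ACEi the control-cell values were 52.0, 152, 16.4 and 137 CPM, the same low libraries as for Nphs1. The macula densa libraries had 22.8 and 11.2 CPM of Npnt on control diet and 3.83 and 6.07 CPM on LS+ACEi, with no overlap with control cells on either diet. Vegfa, the endothelial growth factor (chromosome 17, 46016993 to 46032369), had 221, 201, 134 and 90.4 CPM in control cells on control diet and 62.4, 166, 41.0 and 187 CPM on LS+ACEi. Its macula densa values were 59.4 and 45.5 CPM on control diet and 36.8 and 34.3 CPM on LS+ACEi, so a high level remained where Nphs1 was near 0.

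Golim4, a Golgi membrane protein (chromosome 3, 75875084 to 75956949), had 149.9, 135, 70.6 and 11.9 CPM in control cells on control diet and 22.1, 86.7, 26.5 and 98.1 CPM on LS+ACEi. In macula densa cells it was at 31.1 and 18.1 CPM on control diet and at 15.5 and 10.2 CPM on LS+ACEi. Both macula densa libraries on control diet were above control-cell replicate 4 on that diet. Dpp4, a membrane peptidase of podocytes and proximal tubule (chromosome 2, 62330073 to 62412231), had 72.1, 54.4, 39.4 and 13.7 CPM in control cells on control diet and 10.5, 59.7, 18.3 and 54.6 CPM on LS+ACEi. Its macula densa values were 10.9 and 2.93 CPM on control diet and 3.83 and 3.12 CPM on LS+ACEi. Mertk, a receptor tyrosine kinase that binds protein S and GAS6 (chromosome 2, 128698956 to 128802894), had 44.7, 37.8, 22.2 and 3.51 CPM in control cells on control diet and 12.6, 28.4, 19.5 and 34.7 CPM on LS+ACEi. Macula densa libraries had 5.33 and 2.93 CPM of Mertk on control diet and 6.51 and 5.09 CPM on LS+ACEi, and the groups overlapped on control diet. The related receptor Tyro3 ranged from 0.826 to 4.16 CPM over control cells.

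The members shared an order of libraries. In control cells on control diet, replicate 4 was the lowest of 4 for 29 of 32 genes, the exceptions being Arhgap24, Cd2ap and Npnt. That library was the lowest for 38.0% of all genes tested. It was below each of the other 3 by more than 5-fold for 17 of 32 genes, against 3.8% of all genes. Replicate 1 was the highest for 27 of 32, against 32.1% of all genes. On LS+ACEi, replicates 2 and 4 were both above replicates 1 and 3 for 29 of 32 genes (28.8% of all genes tested), with Cd2ap, Arhgdia and Tyro3 as exceptions. In macula densa cells on control diet, replicate 1 was above replicate 2 for 30 of 32 genes (48.8% of all genes), Arhgdia and Dach1 being the exceptions. The 2 macula densa libraries on LS+ACEi showed no such order, with replicate 1 higher for 19 of 32 genes against 51.2% of all genes. Macula densa replicate 1 on control diet was above control-cell replicate 4 on control diet for 22 of the 32 genes and for 48.9% of all genes.

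Measured as the highest over the lowest control-cell library, with the lowest counted as no lower than 3 counts, the spread on control diet had a median of 11.5-fold over the 32 genes and ran from 1.19-fold for Npnt to 75.1-fold for Lmx1b. It was above 5-fold for 22 of 32 genes, compared with 13.9% of all genes tested. For the 6682 genes with a mean of at least 5 CPM in control cells the median spread was 1.62-fold. On LS+ACEi the median over the 32 genes was 5.86-fold, and 18 of 32 were above 5-fold, compared with 9.14% of all genes. Npnt had a spread of 9.28-fold there, so the gene that was steadiest on control diet was among the more variable ones on the other diet. Arhgdia, Cd2ap, Actn4, Dach1 and Arhgap24 stayed under 3-fold on both diets.

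Relative to Nphs1 within the same library, several genes kept a near-constant ratio although their own levels moved more than 20-fold. The ratio of Podxl to Nphs1 lay between 7.39 and 12.4 in all 8 control-cell libraries, a span of 1.68-fold. For Wt1 and Cdkn1c the ratio spanned 1.84-fold, for Ddn 1.93-fold, for Nes 2.08-fold, for Rhpn1 2.15-fold, for Synpo 2.25-fold and for Clic5 2.45-fold. The ratio spanned 50.8-fold for Cd2ap, 64.5-fold for Arhgap24 and 89.1-fold for Npnt. In the library with the least Nphs1, control-cell replicate 4 on control diet, these ratios rest on few counts of Nphs1.

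**Figure D3:**
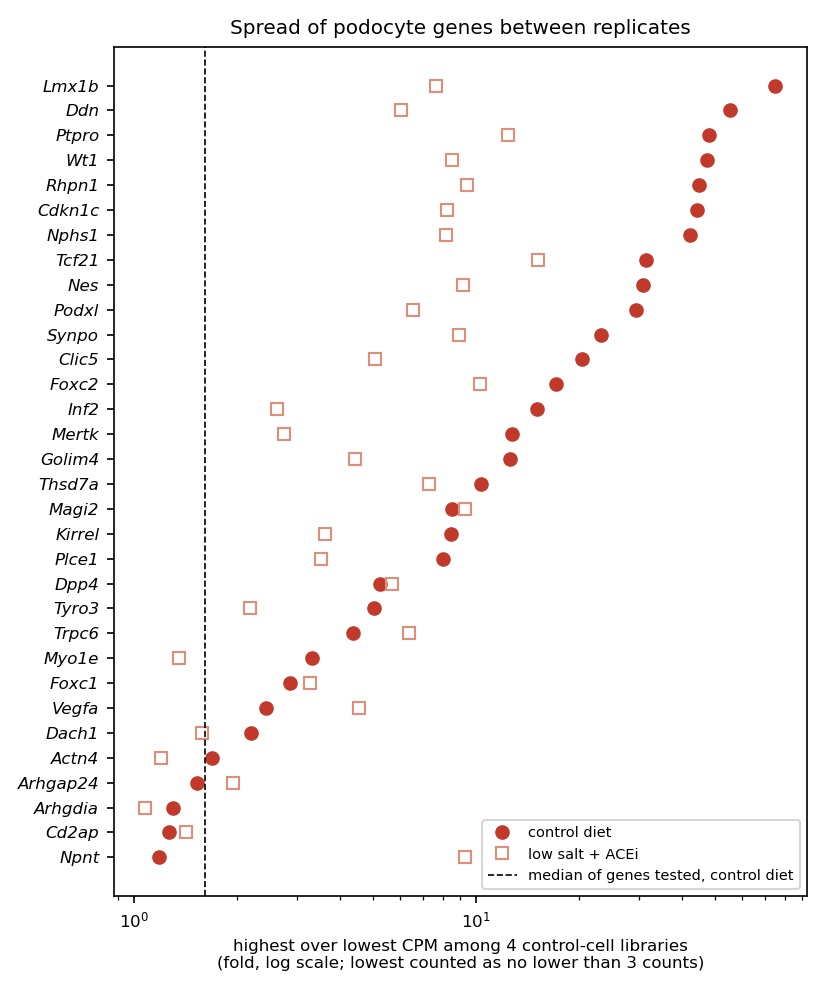
Highest over lowest CPM among the 4 control-cell libraries of each diet for each podocyte gene, on a log axis. Filled circles are control diet and open squares are LS+ACEi, and the dashed line is the median of the 6682 genes at 5 CPM or more, 1.62-fold. The circle of Npnt is the leftmost and that of Lmx1b the rightmost.

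Endothelial markers moved with the podocyte genes between control-cell libraries, and markers of several tubular cell types ran the other way on control diet. The summed level of the 32 podocyte genes was 3268, 2743, 1958 and 813 CPM in control cells on control diet and 781, 2543, 813 and 2243 CPM on LS+ACEi. The macula densa libraries had a summed level of 670 and 389 CPM on control diet and 402 and 384 CPM on LS+ACEi. A list of 13 endothelial markers summed to 2282, 1883, 1289 and 83.6 CPM in control cells on control diet and to 500.2, 1324, 363 and 1743 CPM on LS+ACEi. In macula densa libraries the endothelial sum was 255 and 38.6 CPM on control diet and 23.2 and 17.6 CPM on LS+ACEi, where Plvap was at 0 in both libraries and Eng, Tie1 and Esam in replicate 2. The same control-cell libraries were low for both lists. Markers of principal cells ran the other way on control diet, with 117, 278, 420.1 and 808 CPM, and had 345, 173, 102 and 271 CPM on LS+ACEi. Thick ascending limb markers were at 208, 279, 988 and 1525 CPM in control cells on control diet, and intercalated cell markers at 25.6, 103, 143 and 425 CPM. On LS+ACEi the control cells had 754, 469, 952 and 314 CPM of the thick ascending limb markers and 184, 57.0, 119 and 101 CPM of the intercalated cell markers. Mesangial and smooth muscle markers ranged from 128 to 524 CPM over control cells and from 16.1 to 66.3 CPM over macula densa libraries. Mitochondrially encoded genes took 9.98% of counts in replicate 4 of the control-diet control cells and 3.48% to 5.45% in the other control-cell libraries. In macula densa cells they took 11.7% and 14.1% on control diet and 7.18% and 6.88% on LS+ACEi. The part of these differences in the results below was not tested.

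**Figure D4:**
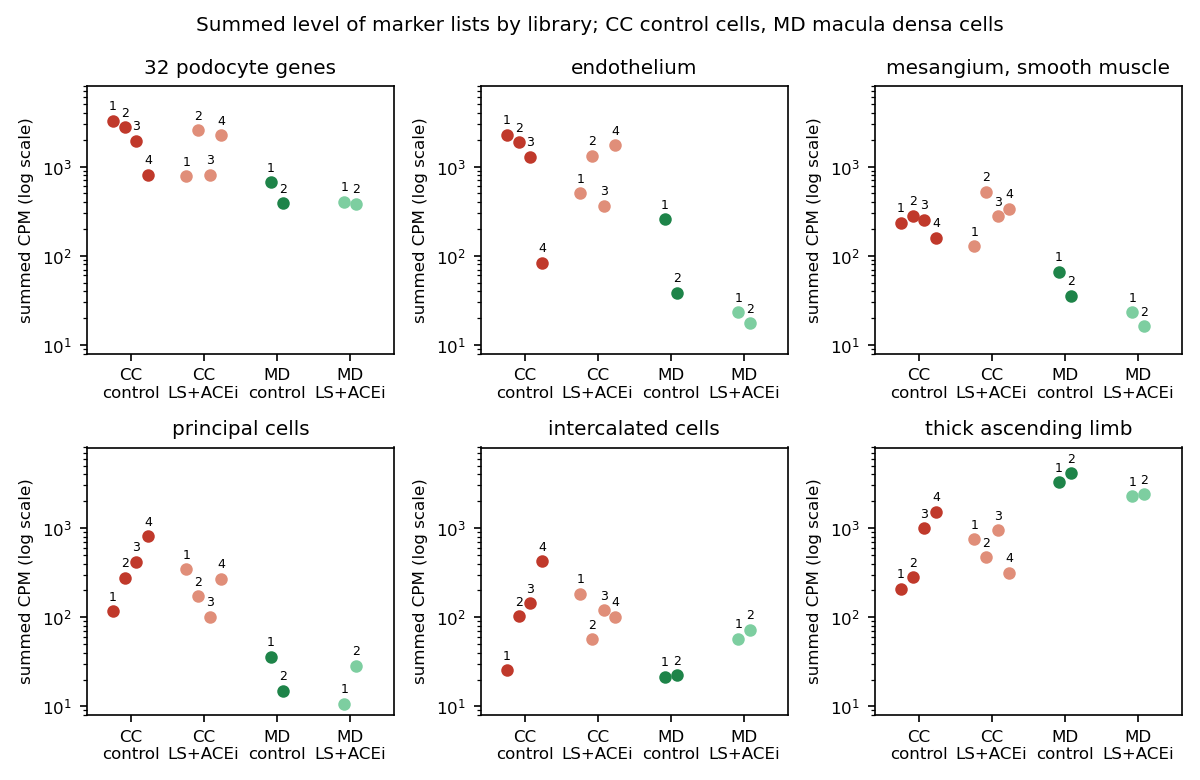
Summed CPM of the 32 podocyte genes and of 5 marker lists, on a log axis, 1 point per library labelled with its replicate number. Control-cell replicate 4 on control diet is lowest of its group for podocyte and endothelial genes, at 813 and 83.6 CPM, and highest for principal cell, intercalated cell and thick ascending limb markers.

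The mixture of these genes differed between libraries. In 3 of the 4 macula densa libraries the most abundant podocyte genes were Actn4, Cd2ap and Arhgap24, which made up 48.7%, 51.1% and 57.1% of the summed level. In macula densa replicate 1 on control diet they were Actn4, Cd2ap and Podxl, at 35.7%. The control-cell libraries with a low sum had much the same leading genes. They were Cd2ap, Actn4 and Arhgap24 in replicate 1 on LS+ACEi (36.4%), Actn4, Podxl and Cd2ap in replicate 3 on LS+ACEi (37.7%), and Npnt, Arhgap24 and Cd2ap in replicate 4 on control diet (53.4%). In each of the other 5 control-cell libraries Podxl led. Of the 32 genes, 6 had 0 counts in macula densa replicate 2 on LS+ACEi.

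Macula densa cells were compared with control cells on control diet to find what sets the sorted population apart. Of the 32 genes, 4 were lower in macula densa cells at an edgeR adjusted p under 0.05 and 0 were higher. Of all genes tested, 3.92% were lower and 2.69% higher, 6.61% in all. These 4 were Foxc1, Npnt, Kirrel and Plce1, and 25 of 32 had an unadjusted p under 0.05, where 24.2% of all genes did. The median log2 fold change of the 32 genes was -2.86 and that of all genes -0.05. Foxc1 averaged 46.2 ± 17.7 CPM in 4 control-cell libraries (SD) but 5.37 ± 3.57 CPM in 2 macula densa libraries (SD), for a log2 fold change of -3.11 (SE 0.61, edgeR adjusted p 0.0128). Npnt averaged 194 ± 13.9 CPM in control cells (SD, n = 4) but 17.0 ± 8.21 CPM in macula densa cells (SD, n = 2), for a log2 fold change of -3.52 (SE 0.76, edgeR adjusted p 0.0194). For Kirrel and Plce1 the log2 fold changes were -3.32 (SE 0.91) and -3.46 (SE 0.94), with edgeR adjusted p-values of 0.0497 and 0.0475. Nphs1, which averaged 47.0 ± 33.4 CPM in control cells (SD, n = 4) but 3.86 ± 3.97 CPM in macula densa cells (SD, n = 2), did not pass. Libraries did not overlap for 9 of 32 genes, all lower in macula densa cells (16.7% of all genes): Arhgap24, Cd2ap, Dpp4, Foxc1, Kirrel, Npnt, Plce1, Tyro3 and Vegfa. The count of 4 rested on single libraries. Leaving out control-cell replicate 4 of the control diet made it 22, leaving out macula densa replicate 1 of that diet made it 1, and leaving out macula densa replicate 2 made it 0. It was 2 without any of control-cell replicates 1, 2 and 3 on control diet, control-cell replicates 1, 2 and 4 on LS+ACEi or either macula densa library on that diet. With limma voom and with DESeq2 it was 14, and with a number shared by some sample descriptions as a replicate block it was 25. On this diet that block sets the macula densa libraries against control-cell replicates 2 and 3 only. Replicates 1 and 4 share their number with no other library and drop out, replicate 4 being the one with little podocyte RNA.

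On LS+ACEi, 9 of the 32 genes were lower in macula densa cells and 0 were higher at an edgeR adjusted p under 0.05. Of all genes tested, 4.13% were lower and 3.15% higher, 7.27% in all. They were Nphs1, Podxl, Kirrel and Plce1 of the slit diaphragm and membrane, Synpo, Clic5 and Inf2 of the cytoskeleton, and Npnt and Dpp4. Podxl averaged 283 ± 227 CPM in control cells (SD, n = 4) but 4.08 ± 1.82 CPM in macula densa cells (SD, n = 2), for a log2 fold change of -6.12 (SE 1.59, edgeR adjusted p 0.0391). Nphs1 had no more than 3 counts in either macula densa library (edgeR adjusted p 0.0461). Against its control-cell mean of 32.1 CPM it was at least 60.2-fold lower relative to the 3-count floor per library. The control-cell libraries behind that mean ran from 6.84 to 55.8 CPM. Kirrel was at least 16.9-fold lower on the same scale (edgeR adjusted p 0.0322), with control-cell libraries from 3.84 to 14.0 CPM. The log2 fold changes of Synpo, Clic5 and Inf2 were -5.25 (SE 1.45), -5.47 (SE 1.44) and -5.29 (SE 1.24), and those of Npnt, Dpp4 and Plce1 were -4.16 (SE 0.81), -3.36 (SE 0.92) and -3.94 (SE 1.02). Inf2 had 4 and 0 counts and Clic5 1 and 11 counts in the macula densa libraries. With macula densa replicate 1 or 2 left out, the value of Inf2 was -10.04 or -4.25 and that of Clic5 was -4.70 or -7.83. No nuclear factor passed (0 of 7 with edgeR, 3 with an unadjusted p under 0.05, where 25.3% of all genes had one). The groups did not overlap for 25 of 32 genes, all lower in macula densa cells (19.5% of all genes). The median log2 fold change was -3.45, or -3.29 with the 5 genes at the floor (Nphs1, Kirrel, Tcf21, Foxc2 and Tyro3) set to their bounds, and -0.06 over all genes. The count of 9 became 19 on leaving out control-cell replicate 4 of the control diet, which enters the fit but not the contrast. It became 5 and 3 without control-cell replicates 2 and 3 on control diet, 1 without control-cell replicate 2 or 4 on LS+ACEi, and 0 without either macula densa library on that diet. DESeq2 gave 22, limma voom 0, a fit of only the 2 groups 15, and the block on the description number 25. On this diet that block sets the macula densa libraries against control-cell replicates 2 and 4 only. Replicates 1 and 3, the control-cell libraries with little podocyte RNA, share their number with no other library and drop out.

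Averaged over both diets, 25 of the 32 genes were lower in macula densa cells and 0 were higher at an edgeR adjusted p under 0.05. Of all genes tested, 13.9% were lower and 7.48% higher, 21.3% in all. By role these were 7 of 9 slit diaphragm and membrane genes, 8 of 10 cytoskeletal genes, 4 of 7 nuclear factors and 6 of 6 secreted factors, receptors and others. The median log2 fold change was -3.27, against -0.06 over all genes. The 2 single-diet comparisons enter this average, so it is not separate evidence from them.

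Among slit diaphragm and membrane genes, the averaged log2 fold change of Podxl was -4.72 (SE 1.03, edgeR adjusted p 0.00778). Ptpro, Plce1 and Thsd7a had -4.56 (SE 1.25), -3.70 (SE 0.69) and -3.52 (SE 0.92), with edgeR adjusted p-values of 0.0224, 0.0036 and 0.0180. Magi2 was lower by less, at -2.32 (SE 0.74, edgeR adjusted p 0.0414). Nphs1 and Kirrel also passed, with edgeR adjusted p-values of 0.00809 and 0.00321, and their fitted folds are not given because of the floor. Cd2ap and Trpc6 missed the threshold at log2 fold changes of -0.29 (SE 0.17) and -1.35 (SE 0.79).

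Cytoskeletal genes split into a strongly and a weakly lower set. The strongly lower set held Ddn at -4.86 (SE 1.07, edgeR adjusted p 0.0079), Clic5 at -4.61 (SE 0.94), Nes at -4.60 (SE 1.09), Synpo at -4.12 (SE 0.95), Rhpn1 at -3.94 (SE 0.93) and Inf2 at -3.90 (SE 0.77). Arhgap24 and Arhgdia passed with log2 fold changes of only -0.60 (SE 0.20, edgeR adjusted p 0.0496) and -0.58 (SE 0.14, edgeR adjusted p 0.0123). Actn4 and Myo1e had -0.50 (SE 0.17) and -0.56 (SE 0.27) and did not pass. Ddn had 6 and 0 counts in the macula densa libraries on LS+ACEi, and its value was -7.48 without replicate 1 and -4.30 without replicate 2 of them. For Inf2, with 4 and 0 counts there, these values were -6.25 and -3.35, and for Clic5 they were -4.20 and -5.76, so the order within the set rests on single libraries.

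Of the nuclear factors, Wt1 had an averaged log2 fold change of -4.42 (SE 1.07, edgeR adjusted p 0.0128), Lmx1b -3.51 (SE 1.06, edgeR adjusted p 0.0334) and Foxc1 -2.46 (SE 0.42, edgeR adjusted p 0.0021). Foxc2 passed with an edgeR adjusted p of 0.0186. On LS+ACEi it was at least 12.3-fold lower than the control-cell mean relative to the floor, with control-cell libraries from 1.31 to 13.5 CPM. Cdkn1c, Tcf21 and Dach1 did not pass. Cdkn1c had a log2 fold change of -1.71 (SE 0.82) and Dach1 of 0.02 (SE 0.23). The averaged value ran from -6.76 to -3.86 for Wt1 and from -6.46 to -3.04 for Lmx1b with a macula densa library on LS+ACEi left out, where each gene had 0 counts in 1 of the 2. In the last group, Npnt had the smallest adjusted p of the 32 genes, 0.000729 with edgeR, and a log2 fold change of -3.84 (SE 0.55). Dpp4, Mertk, Golim4 and Vegfa followed at -3.03 (SE 0.62), -2.37 (SE 0.56), -2.04 (SE 0.63) and -1.65 (SE 0.41), and Tyro3 passed with an edgeR adjusted p of 0.00923.

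**Figure D5:**
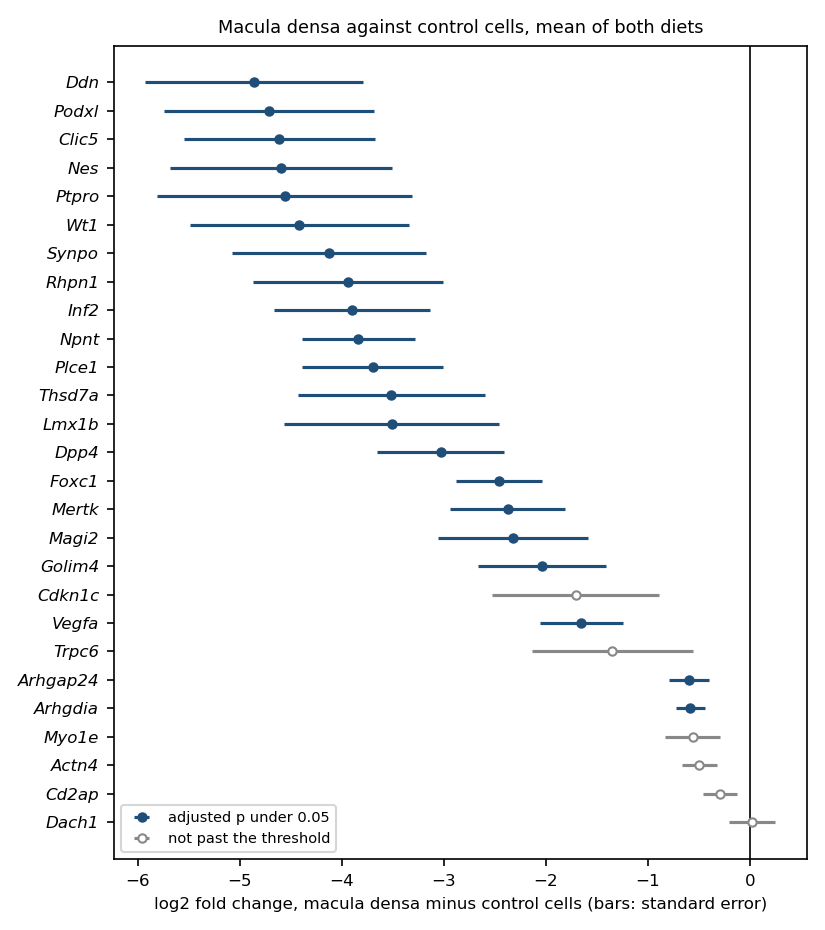
Averaged log2 fold change of macula densa against control cells for the 27 podocyte genes not at the floor in any group, with standard errors. Filled points passed an edgeR adjusted p of 0.05. The genes from Ddn to Golim4 lie below -2, and Arhgap24, Arhgdia, Myo1e, Actn4, Cd2ap and Dach1 lie above -1.

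The size of the difference went with the spread between control-cell libraries. Of the 22 genes with a spread above 5-fold on control diet, 20 were lower in the averaged comparison, with a median log2 fold change of -3.92. Of the other 10 genes, 5 were lower and the median was -0.59. Both measures use the same control-cell libraries, so they are not independent. Npnt, Foxc1 and Vegfa were among the 10 genes with less spread, yet were lower by more than the median of those 10. The share of all genes that were lower within each class of spread was not counted. On both diets the groups did not overlap, with macula densa cells lower, for 7 of 32 genes (7.6% of all genes): Dpp4, Foxc1, Kirrel, Npnt, Plce1, Tyro3 and Vegfa. The averaged count of 25 became 13 on leaving out macula densa replicate 2 of the control diet and 9 on leaving out replicate 2 of LS+ACEi, and 14 with limma voom. The 9 genes Clic5, Ddn, Dpp4, Foxc1, Inf2, Kirrel, Npnt, Plce1 and Tyro3 passed with each library left out in turn. Of these, Clic5, Ddn, Inf2 and Kirrel did not pass with limma voom. The other 5 (Dpp4, Foxc1, Npnt, Plce1 and Tyro3) passed under every alternative in which they were tested. Tyro3 averaged 1.96 CPM in control cells and 0.38 CPM in macula densa cells, so the filter at a mean of 5 CPM left it untested. Endothelial markers were lower in the averaged comparison for 13 of 13 genes, mesangial and smooth muscle markers for 9 of 11, and principal cell markers for 7 of 7. Of all genes tested, 13.9% were lower there.

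Other genes of the podocyte's basement membrane, adhesion, polarity and signalling, a list of 32, divided between the populations. In the averaged comparison 17 of the 32 were lower in macula densa cells and 4 were higher, with a median log2 fold change of -0.66. Of all genes tested, 13.9% were lower and 7.48% higher, with a median of -0.06. The largest decreases by the naming rule were in Nid1, Sema3g and Enpep. Sema3g, a secreted semaphorin, measured 149, 132, 80.8 and 5.48 CPM in control cells on control diet, the order of Nphs1, and had a log2 fold change of -4.57 (SE 1.13, edgeR adjusted p 0.0142). Enpep, the peptidase aminopeptidase A that degrades angiotensin II, had a log2 fold change of -3.74 (SE 0.85, edgeR adjusted p 0.00922). Nid1, the basement membrane protein nidogen-1, had 0 counts in both macula densa libraries on LS+ACEi and 7.14 to 29.1 CPM in control cells on that diet (edgeR adjusted p 0.00351).

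The 3 largest increases in that list were in Robo2, Col4a3 and Col4a4, and Iqgap1 was the fourth that was higher. Robo2, a receptor of SLIT ligands that binds nephrin through an adaptor, was at 128 and 141 CPM in macula densa cells on control diet and 193 and 156 CPM on LS+ACEi. In control cells Robo2 had 40.0, 35.2, 21.2 and 1.55 CPM on control diet and 4.92, 33.3, 11.1 and 28.8 CPM on LS+ACEi, again with the low libraries of Nphs1. Its log2 fold change was 2.81 (SE 0.59, edgeR adjusted p 0.00665). Col4a3 and Col4a4, which encode collagen IV chains of the mature glomerular basement membrane, had log2 fold changes of 0.96 (SE 0.22, edgeR adjusted p 0.00994) and 0.76 (SE 0.16, edgeR adjusted p 0.00661). Macula densa libraries had 202 to 379 CPM of Col4a3, and control cells had 92.0 to 202 CPM. On control diet alone 0 of the list passed as higher and 5 as lower, where 2.69% and 3.92% of all genes tested did. On LS+ACEi these counts were 4 and 4, where 3.15% and 4.13% of all genes passed. On control diet the log2 fold changes of Robo2, Col4a3 and Col4a4 were 2.46, 0.55 and 0.35 (edgeR adjusted p 0.0970, 0.316 and 0.385), and on LS+ACEi they were 3.17, 1.37 and 1.18 (edgeR adjusted p 0.0434, 0.0225 and 0.0110). The difference between the diets did not pass for any of the 3 (edgeR adjusted p 0.933, 0.761 and 0.684).

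The diets were compared within each population to see what responded to LS+ACEi. In control cells 0 of the 32 genes passed with edgeR, where 0.00705% of all genes tested (1 of 14180) did, and 1 had an unadjusted p under 0.05 (6.45% of all genes). DESeq2 and limma voom also gave 0 of the 32. The gene under 0.05 was Npnt, at 194 ± 13.9 CPM on control diet and 89.3 ± 65.6 CPM on LS+ACEi (SD, n = 4 each), or a log2 difference of -1.12 (SE 0.51, edgeR adjusted p 0.774). Npnt was also the only one of the 32 genes whose libraries did not overlap between the diets, being lower in 4 of 4 on LS+ACEi, as for 2.09% of all genes. Podxl, at 384 ± 269 and 283 ± 227 CPM (SD, n = 4 each), and Wt1, at 22.0 ± 15 and 16.7 ± 12.2 CPM, differed by less than the spread between libraries. The median log2 difference of the 32 genes was -0.40, against -0.04 over all genes.

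In macula densa cells 0 of the 32 genes passed with edgeR between the diets, where 0% of all genes did (0 of 14180), and 2 had an unadjusted p under 0.05, Npnt and Podxl (11.2% of all genes). DESeq2 called 93 genes in this comparison and 0 of the 32. Podxl measured 38.7 ± 46.0 CPM on control diet and 4.08 ± 1.82 CPM on LS+ACEi (SD, n = 2 each), or a log2 difference of -3.25 (SE 1.46, edgeR adjusted p 0.439), which ran from -4.22 to -0.66 with a library left out. The value of -0.66 came from leaving out macula densa replicate 1 of the control diet, the library with the most endothelial and podocyte RNA of the 4. Libraries did not overlap, with the treated ones lower, for 11 of 32 genes (21.8% of all genes). Foxc1 was the only gene of the 32 with both treated libraries above both control libraries (18.8% of all genes). The difference between the 2 diet effects passed for 0 of the 32 genes with edgeR (0% of all genes), and 0 of the 32 had an unadjusted p under 0.05 (7.03% of all genes). The median difference, macula densa minus control cells, was -0.53.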

How the data were processed

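The deposited table held estimated counts (expected counts) per gene for 12 libraries, and 14.8% of its values were not whole numbers, so values were rounded before testing. Per the labels' protocols, sorted cells gave total RNA for a stranded low-input total RNA kit, with all libraries prepared together. STAR 2.61, Partek and mm10 are named in the submitters' processing notes, with no role or order. Whether strand was used in counting is not given in the sources used here. Gene positions are those of GENCODE M21 on GRCm38, which the table's coordinates matched for 23378 of 23378 genes. Every column had a sample (0 without one), and replicate pairs differed by more than sampling noise, so none was merged as a repeat deposit.

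Groups and replicate numbers came from the labels. Genes were kept with filterByExpr of edgeR 4.0.16 (R 4.3.3; count minimum 10, total minimum 15) and scaled with TMM. A single quasi-likelihood fit of all 12 libraries had 1 coefficient for each group, and Benjamini-Hochberg adjustment covered all 14180 genes at a threshold of 0.05. Standard errors are the log2 fold change divided by the square root of F. A gene with at most 3 counts in every library of a group was at the floor. Its fold is a lower bound for the control-cell mean over the mean of those floors, and it does not allow for the spread between control-cell libraries. Floors allow for counting error alone, because without molecular identifiers reads are not separate molecules. Simulated counts were used to check the fit. Alternatives were DESeq2 1.42.0 size factors and Wald test, library totals, other filters, leaving out ribosomal and mitochondrial genes, limma 3.58.1 voom with sample weights, replicate blocks, fitting the compared groups alone, and leaving out each library.

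The members and all gene lists were chosen with earlier results of these data known. Values per library are given for the 5 members of each role with the highest mean CPM over control cells plus Nphs1, Wt1 and Synpo. Of the further podocyte genes, the 3 largest differences in each direction among those past the threshold with at least 5 CPM in the higher population are named.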

Additional observations from a re-analysis of the deposited data

Results flagged for a closer look

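For each of the 32 genes, the 4 control-cell libraries of each diet were checked for a library whose gap to the others was large relative to the range of all 4, on the log2 CPM scale. Of 64 such sets, 7 had one. At 1 in 20, independent sets would give 3.2, but these genes vary together in the same libraries, so that number is no measure of chance here. Control-cell replicate 4 on control diet was the low library for Nphs1, at 0.99 against 5.40 to 6.21 in the others, and for Wt1, at -0.07 against 4.51 to 5.11. It was also low for Clic5, at 2.51 against 6.22 to 6.81, for Inf2, at 0.45 against 3.73 to 4.12, and for Rhpn1, at 0.21 against 4.52 to 5.39. Arhgdia, a GDP-dissociation inhibitor, was at 4.97 in that library against 5.34 to 5.35, a small difference in a gene that is otherwise nearly constant. On LS+ACEi, Arhgdia was highest in control-cell replicate 3, at 5.46 against 5.35 in each of the others. The marker lists of these libraries are given with the results, and their part in these values was not tested.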

How the results depend on the processing

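Scaling by library totals alone moved the median log2 fold change of all genes from -0.05 to 0.12 on control diet, from -0.06 to 0.16 on LS+ACEi and from -0.06 to 0.14 in the average. It changed the direction of none of the podocyte genes' averaged fold changes. Of the 32 genes, the number called lower on control diet was 2 with library totals, with a filter at a mean of 5 CPM, and in a fit of only the groups compared, and 14 with DESeq2 and with limma voom, instead of 4. On LS+ACEi it was 22 with DESeq2, 0 with limma voom and 15 in a fit of only the groups compared, instead of 9. In the average it was 14 with limma voom instead of 25. With a library left out, the lowest and highest counts were 0 and 22 on control diet, 0 and 19 on LS+ACEi, and 9 and 29 in the average. The cause was not tested. The diet comparisons and the difference of diet effects gave 0 of the 32 genes under every alternative that could be fitted. The averaged value of Dach1 was near 0 and turned from 0.02 to -0.047 with limma voom, and it ran from -0.14 to 0.15 with a library left out. Arhgap24, Magi2, Lmx1b and Golim4 lost their averaged call most often, in 15, 11, 11 and 11 alternatives. Depth limits Trpc6 and Tyro3, which had few counts in every library.

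Replicate numbers in the titles and a number shared by some sample descriptions were each tried as a block. The correlations of deviations from group means were 0.23, -0.02, 0.08 and -0.04 for the 4 pairs sharing a description number. For title numbers they ran from -0.38 to 0.28. With 2 macula densa libraries a group, their deviations mirror each other, so correlations with them cannot tell paired from unpaired libraries. Each pair sharing a description number held a macula densa library, marked cell, and a control-cell library of the same diet, marked ctrl. Whether the description number marks a shared animal or sort was not tested, and the main fit used no block. With the title number as a replicate block the counts were 1 on control diet, 1 on LS+ACEi and 18 in the average, and with the description number they were 25, 25 and 29. The description block rests on the 4 pairs alone. Control-cell replicates 1 and 4 on control diet and 1 and 3 on LS+ACEi share their number with no other library and drop out. They include the control-cell libraries with the lowest podocyte sums, replicate 4 on control diet (813 CPM) and replicates 1 and 3 on LS+ACEi (781 and 813 CPM). Its counts are therefore not those of the same libraries with a block added. Dach1 turned to -0.16 and -0.12 with these blocks. The description number left the 2 diet comparisons without a fit.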
